A study of Homo sapiens with 4 samples.

Results

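The 8 genes described here are 5 keratins (KRT7, KRT8, KRT18, KRT19 and KRT80) and 3 genes best known from epidermis and other barrier epithelia (FLG, SERPINB7 and EMP1). They are 8 of the 26364 genes listed in the count tables. They were chosen by name with their sh60 against LacZ differences in these libraries already known, so those differences are given as a description and not as a test. Values of single libraries are printed with the lower replicate number of each group first (1 and 3 for LacZ, 1 and 2 for sh60). Messenger RNA was sequenced in NTERA2, a line of human embryonal carcinoma, which resembles pluripotent cells. The labels name 1 clone of it for every library. The labels give a group BEND3 LacZ (replicates 1 and 3) and a group BEND3 sh60 (replicates 1 and 2), all grown in high-glucose DMEM with serum. LacZ is read here as the control hairpin and sh60 as a hairpin targeting BEND3, a BEN-domain repressor of transcription, a reading the labels leave unsaid. For the delivery, the harvest time and any selection of cells, the sources used here give nothing. Whether the replicates are separate cultures is not given in the labels, so p-values measure only the spread between these libraries, which may be technical.

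Keratins form the intermediate filaments of epithelial cells. Each filament is built from heterodimers of a type I (acidic) and a type II (basic) keratin, and a keratin without a partner is unstable as a protein. KRT8 (type II) and KRT18 (type I) are the pair of simple epithelia and the first keratins of the embryo, while KRT7 (type II) and KRT19 (type I) join them in ducts, trophoblast and other simple epithelia. KRT80 is a type II keratin of differentiating epithelia. FLG encodes filaggrin, which bundles keratin filaments in the outer epidermis, SERPINB7 encodes an intracellular serine protease inhibitor of the outer epidermis, and EMP1 encodes epithelial membrane protein 1 of the PMP22 family.

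Promoter sequences are shown for the only 4 genes with a window, which are the 3 with the largest differences and KRT8, whose difference was small. RefSeq windows on GRCh38.p14, from 250 bases before to 50 bases after an annotated start, were found for 4 of the 8 genes. None was found for KRT7, KRT18, KRT19 and KRT80. Of the 3 windows for SERPINB7 the most downstream is printed. For KRT8 as for the other genes, the deposited counts do not show which start was used. The genes were also chosen with their differences known, so no contrast between KRT8 and the other 3 is read from these windows. Capitals mark matches to TGANTCA, the 7-letter core bound by AP-1 factors, which reads the same on both strands.
FLG, chr1:152325190-152325489, minus strand: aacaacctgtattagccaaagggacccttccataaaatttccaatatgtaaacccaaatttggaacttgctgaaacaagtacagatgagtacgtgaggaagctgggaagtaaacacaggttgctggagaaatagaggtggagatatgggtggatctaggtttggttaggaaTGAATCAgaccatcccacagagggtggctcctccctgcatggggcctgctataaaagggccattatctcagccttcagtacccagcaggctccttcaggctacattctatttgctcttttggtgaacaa
SERPINB7, chr18:63777531-63777830, plus strand: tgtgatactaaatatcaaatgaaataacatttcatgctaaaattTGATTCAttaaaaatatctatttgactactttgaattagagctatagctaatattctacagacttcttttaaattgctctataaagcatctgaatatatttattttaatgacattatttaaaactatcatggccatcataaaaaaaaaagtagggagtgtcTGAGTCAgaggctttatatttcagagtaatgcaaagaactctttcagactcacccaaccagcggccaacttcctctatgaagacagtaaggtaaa
EMP1, chr12:13196476-13196775, plus strand: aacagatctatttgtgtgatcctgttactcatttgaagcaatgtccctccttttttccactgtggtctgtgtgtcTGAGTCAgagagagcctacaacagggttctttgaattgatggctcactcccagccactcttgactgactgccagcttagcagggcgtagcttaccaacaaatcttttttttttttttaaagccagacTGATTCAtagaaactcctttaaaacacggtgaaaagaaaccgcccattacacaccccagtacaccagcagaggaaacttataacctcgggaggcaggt
KRT8, chr12:52926420-52926719, minus strand: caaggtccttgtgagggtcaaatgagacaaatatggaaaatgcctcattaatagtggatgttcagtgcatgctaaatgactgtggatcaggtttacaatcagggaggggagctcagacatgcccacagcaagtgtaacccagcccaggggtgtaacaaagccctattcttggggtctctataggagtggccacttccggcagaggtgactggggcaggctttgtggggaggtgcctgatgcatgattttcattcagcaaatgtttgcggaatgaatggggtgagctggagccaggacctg

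The core TGANTCA was present in 4 of the 6 windows and in 7.71% of all 35116 windows of the same length. These 6 windows come from only 4 genes, and 2 of those with the core are starts of SERPINB7, so they are not independent. In the FLG window it began at -79 from the start site, in the EMP1 window at -175 and -48, and in the printed SERPINB7 window at -206 and -45. A second SERPINB7 window held it at -154 and -39, and the remaining SERPINB7 window and the KRT8 window did not hold it. The form TGAGTCA, searched on both strands and so equal to TGACTCA, was in the EMP1 window and in 2 SERPINB7 windows, against 4.95% of all windows. The TATA element TATAAA was in the FLG window at -30 and in the printed SERPINB7 window, against 11.5% of all windows. The GC box GGGCGG was in the EMP1 window alone among the 6 (45.0% of all windows), and the AP-2 core GCCNNNGGC was in none of the 6 (23.2% of all windows). The TEAD core GGAATG was in the FLG and KRT8 windows (14.0% of all windows), and in FLG it overlaps the TGANTCA match. These matches describe letters in a window and do not show binding.

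The libraries held 30338285 to 44788461 counts, and 1 count was worth 0.0221 to 0.0333 CPM (CPM is the count scaled to a common library size). A count of 0 allows up to 3 counts, which correspond to 0.0663 to 0.0998 CPM. BEND3 itself measured 68.8 and 79.3 CPM in the LacZ pair, against 55.7 and 52.0 CPM in the sh60 pair, and fell by 0.46 on the log2 scale (edgeR adjusted p = 0.00168). The cells carried the markers of embryonal carcinoma, 8 genes that summed to 4624 and 4868 CPM in the LacZ pair, against 4512 and 4318 CPM in the sh60 pair. Of these 8, 1 rose (SOX2), 3 fell (TDGF1, SALL4 and DNMT3B) and 4 did not pass. Over all tested genes 15.8% rose and 13.0% fell. Not all calls among the 8 were kept when either LacZ library was left out. The part of these markers in the results was not tested. The labels call the line a lung carcinoma, but 3 of 7 lung epithelial markers had 0 counts in every library and the 7 together reached 0.155 to 0.594 CPM.

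All 8 genes passed the filter on low counts. In the edgeR quasi-likelihood fit over 16040 genes, 6 of the 8 were higher in sh60 at an adjusted p under 0.05, as were 15.8% of all tested genes, and KRT8 and KRT18 did not pass. A log2 fold change of 1 or more was also reached by 4 of the 8 and by 3.58% of all tested genes. Both sh60 libraries lay above both LacZ libraries for 7 of the 8 genes (32.1% of all tested genes) and below them for KRT18 (32.3% of all tested genes). The median log2 fold change was 0.89 over the 8 genes and -0.0042 over all tested genes. Nothing is read from these counts, because the same contrast chose the genes. In bulk RNA a change in the number of expressing cells and a change in RNA per cell cannot be told apart.

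**Figure D1:**
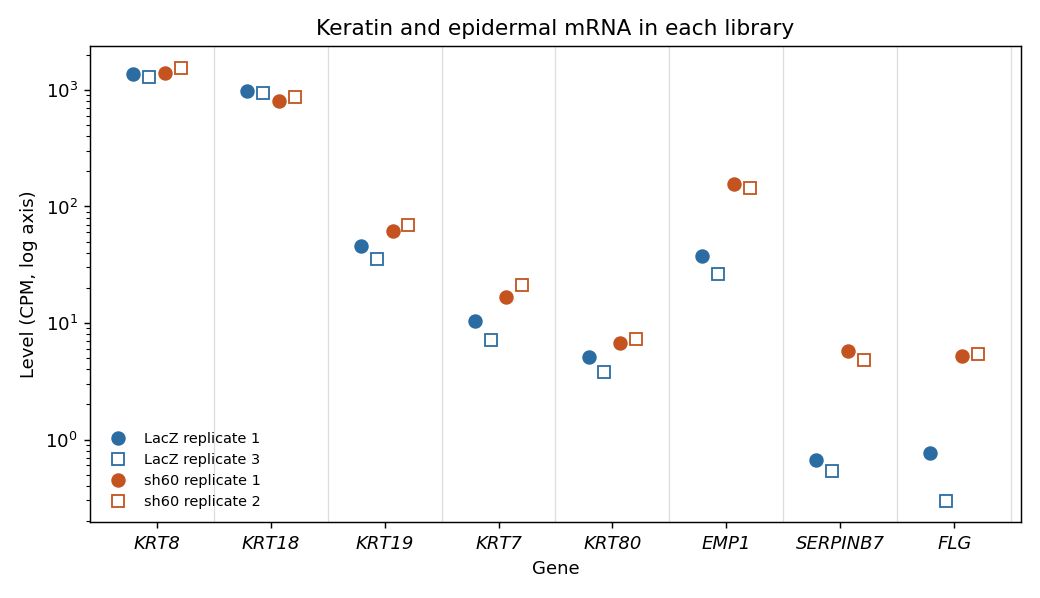
Levels of the 8 genes in CPM on a log axis, with 1 point per library (blue LacZ, orange sh60). KRT8 and KRT18 lie between 804.5 and 1555 CPM, whereas FLG and SERPINB7 sit below 1 CPM in LacZ and near 5 CPM in sh60.

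KRT8, the type II partner of the pair, differed little. It measured 1376 and 1283 CPM in the LacZ pair, against 1399 and 1555 CPM in the sh60 pair. The lowest sh60 library exceeded the highest LacZ library by a factor of only 1.02. The log2 fold change was 0.15 (SE 0.080, 95% confidence interval -0.02 to 0.32). KRT8 (chromosome 12, 53290971 to 53343650, hg19, minus strand) overlaps the KRT18 gene model at its outer end, on the opposite strand, and the counting used strand.

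KRT18, the partner of KRT8, had the opposite sign. Its level was 980.3 and 946.7 CPM in the LacZ pair, against 804.5 and 874.6 CPM in the sh60 pair, with both sh60 libraries below both LacZ libraries. The log2 fold change was -0.20 (SE 0.078, 95% confidence interval -0.36 to -0.04). KRT18 did not pass in the fit reported (edgeR adjusted p = 0.0634), where the p but not the interval is adjusted over all tested genes. It passed the adjusted threshold under 6 of the 12 alternative settings and had a negative sign under each of them. KRT18 lies at chromosome 12, 53342655 to 53346685. GENCODE 29 lists 50 pseudogenes of KRT8 and 68 of KRT18, and the counting command has no option to keep reads that map to several places, so both levels are uncertain.

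The balance within the pair differed between the groups. Per length, that is in RPKM, which divides CPM by the exon length in kilobases, the ratio of KRT8 to KRT18 was 0.951 and 0.918 in the LacZ pair, against 1.18 and 1.21 in the sh60 pair. Per length KRT18 was ahead in both LacZ libraries and KRT8 in both sh60 libraries. By counts, without division by length, the ratio was 1.40 and 1.35 in the LacZ pair, against 1.74 and 1.78 in the sh60 pair. KRT8 was then ahead in every library, so which gene leads depends on the length used. In both forms the ratio was higher in sh60. Division by length changes it by the same factor in every library, so this is 1 observation. The group means were 0.935 ± 0.023 (SD, n = 2) and 1.19 ± 0.019 (SD, n = 2). Over all 55 keratin genes in the tables, the summed type II level relative to the summed type I level was 0.898 ± 0.019 in LacZ and 1.11 ± 0.017 in sh60 (SD, n = 2 each). KRT8 and KRT18 make up most of these sums, so this is nearly the same ratio again. The total of all keratins was 1258 ± 51.4 RPKM in LacZ and 1266 ± 87.6 RPKM in sh60, a difference smaller than the spread in either group.

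KRT19, the type I keratin without a long tail domain, came after KRT8 and KRT18 among the keratins by RPKM. It measured 46.2 and 35.7 CPM in the LacZ pair, against 61.3 and 69.6 CPM in the sh60 pair, so the groups did not overlap. The log2 fold change was 0.67 (SE 0.12), or 1.60-fold. Relative to KRT18 per length, KRT19 went from 4.43% ± 0.69 in LacZ to 8.13% ± 0.24 in sh60 (SD, n = 2 each). KRT19 lies at chromosome 17, 39679869 to 39684641, and GENCODE 29 lists 5 pseudogenes of it.

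KRT7 (chromosome 12, 52626954 to 52642709), the type II keratin of ducts and trophoblast, showed the largest fold change among the 5 keratins. Its level was 10.3 and 7.12 CPM in the LacZ pair, against 16.7 and 21.3 CPM in the sh60 pair. The sh60 libraries were both higher, and the log2 fold change was 1.12 (SE 0.16), or 2.17-fold. KRT7 remained a minor keratin in both groups, at 0.869% ± 0.18 of KRT8 per length in LacZ and 1.71% ± 0.17 in sh60 (SD, n = 2 each). KRT80 (chromosome 12, 52562780 to 52585784) measured 5.13 and 3.83 CPM in the LacZ pair, against 6.75 and 7.27 CPM in the sh60 pair. Its log2 fold change of 0.63 (SE 0.17) was 0.45 without LacZ replicate 3, where the edgeR adjusted p was 0.130. KRT7 and KRT80 are neighbours in the type II cluster, 41169 bases apart with 2 other genes between them.

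**Figure D2:**
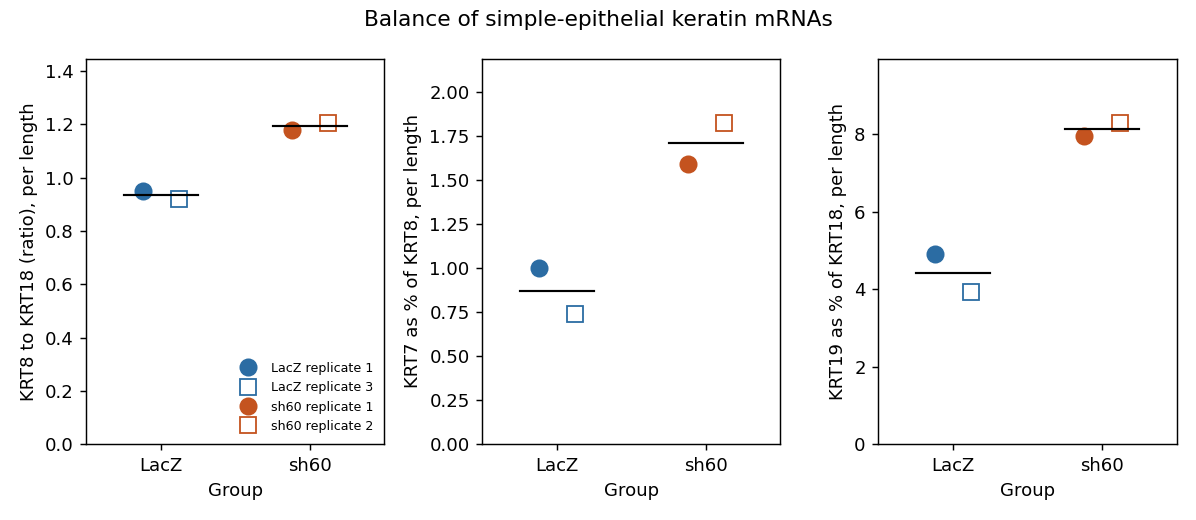
Per-length level of KRT8 relative to KRT18, KRT7 as a percentage of KRT8 and KRT19 as a percentage of KRT18, with 1 point per library and a bar at each group's mean (n = 2). The ratio of KRT8 to KRT18 was 0.918 and 0.951 in the LacZ libraries and 1.18 and 1.21 in the sh60 libraries.

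KRT8 and KRT18 held most of the keratin RNA in both groups. Together they made up 96.5% ± 0.40 of all keratin RNA per length in LacZ and 94.7% ± 0.14 in sh60 (SD, n = 2 each). KRT19 made up 2.21% ± 0.31 and 3.51% ± 0.069, and KRT7 0.405% ± 0.089 and 0.880% ± 0.090, in the same order. The 5 keratins named here accounted for 99.2% in each group.

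EMP1 (chromosome 12, 13349602 to 13369708) showed the largest difference in CPM among the 3 epidermal genes. It measured 37.4 and 26.5 CPM in the LacZ pair, against 154.8 and 145.3 CPM in the sh60 pair. The lowest sh60 library was 3.88 times the highest LacZ library. The log2 fold change was 2.22 (SE 0.12), or 4.67-fold (95% confidence interval 3.90 to 5.58), which ranked 53 from the top among the 16040 genes.

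SERPINB7 (chromosome 18, 61420281 to 61472610) was low in LacZ, with 28 and 16 counts in replicates 1 and 3, against 196 and 218 counts in the sh60 pair. These are 0.665 and 0.532 CPM in LacZ and 5.76 and 4.82 CPM in sh60, with no overlap of the groups. The exact Poisson 95% intervals of the LacZ libraries were 0.442 to 0.961 and 0.304 to 0.864 CPM and cover counting error only. The log2 fold change was 3.11 (SE 0.24), or 8.63-fold.

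FLG (chromosome 1, 152274651 to 152297679) had the largest fold change of the 8 over all 4 libraries. It had 32 and 9 counts in the LacZ pair, against 176 and 245 counts in the sh60 pair, or 0.760, 0.299, 5.17 and 5.41 CPM. The log2 fold change was 3.23 (SE 0.27), or 9.39-fold (95% confidence interval 6.31 to 13.97). LacZ replicate 3, with its 9 counts, weighs on this size. The value was 6.95-fold without it, where SERPINB7 was at 7.89-fold, and 17.6-fold without LacZ replicate 1. Without sh60 replicate 2, FLG was at 9.18-fold and SERPINB7 at 9.43-fold. Per length FLG remained the lowest of the 8 genes, at 0.415 ± 0.014 RPKM in sh60 (SD, n = 2). The antisense gene FLG-AS1, named after its value was seen, overlaps FLG on the other strand and measured 11.6 and 10.5 CPM in the LacZ pair, against 18.4 and 14.6 CPM in the sh60 pair. It rose 1.49-fold (edgeR adjusted p = 0.00362), and the part of any antisense reads in the FLG counts was not tested.

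The order of the 8 genes by RPKM was KRT18, KRT8, KRT19, EMP1, KRT7, KRT80, SERPINB7 and FLG in LacZ. In sh60 it was KRT8, KRT18, EMP1, KRT19, KRT7, SERPINB7, KRT80 and FLG, so 3 neighbouring pairs had changed places. By CPM KRT8 was above KRT18 in every library, so the exchange of that pair depends on the division by length. In neither group did the libraries of neighbouring genes overlap. The closest neighbours in LacZ were KRT18, whose lower library was at 616.8 RPKM, and KRT8, whose higher library was at 607.5 RPKM. In sh60 the lower EMP1 library was at 51.8 RPKM and the higher KRT19 library at 47.3 RPKM. The lower SERPINB7 library was at 2.03 RPKM and the higher KRT80 library at 1.87 RPKM. Among all 16040 tested genes KRT8 and KRT18 ranked 73 and 78 by mean RPKM over the 4 libraries, and FLG ranked 14719.

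The LacZ libraries also differed from each other. All 8 were higher in LacZ replicate 1, with LacZ replicate 3 below it, as for 49.3% of all tested genes and for 75.5% of the genes called higher in sh60. The ratio of the LacZ libraries was 1.04 for KRT18, 1.07 for KRT8, 1.25 for SERPINB7, 1.29 for KRT19, 1.34 for KRT80, 1.41 for EMP1, 1.45 for KRT7 and 2.54 for FLG. For the 6 genes called higher the fold between groups was larger than this ratio. Its part in the differences between groups was not tested.

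The other keratins were mostly at low counts. Of 50 further keratin genes in the tables, 21 had 0 counts in every library and 6 passed the filter on low counts. In the edgeR test 0 rose (15.8% of all tested genes), 2 fell (13.0% of all tested genes) and 4 did not pass, with a median log2 fold change of -0.40. Without LacZ replicate 3, 1 was called higher and 2 lower, and without LacZ replicate 1 none was called in either direction. KRT81, a type II hair keratin, fell from 1.62 to 0.794 CPM (log2 fold change -1.03, SE 0.28, edgeR adjusted p = 0.0107). That call was lost without LacZ replicate 1, without sh60 replicate 1 and by DESeq2. KRT74, a type II keratin of the hair root sheath, had 15 and 10 counts in the LacZ pair, against 1 and 0 counts in the sh60 pair (edgeR adjusted p = 0.00153). KRT10, the type I keratin of upper epidermis, measured 12.2 CPM in LacZ and 13.4 CPM in sh60 and did not pass. In the type II cluster, which holds 4 of the 8 genes, 0 of 3 other tested genes rose. The 2 that fell were KRT81 and KRT74, already counted above. In the type I cluster around KRT19, 0 of 4 other tested genes passed in either direction.

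Intermediate filament genes outside the keratins changed in both directions. Of 16 listed, 13 passed the filter, and 13 passed the edgeR test. In sh60, 8 rose and 5 fell, where 28.8% of all tested genes passed. LMNA, which encodes the A-type lamins of the nuclear envelope, rose from 145.3 ± 22.0 to 321.8 ± 19.6 CPM (SD, n = 2 each; log2 fold change 1.15, edgeR adjusted p = 1.35e-07). SYNC, a filament-linking protein of muscle, rose 3.81-fold to 6.99 CPM, and NEFH, the heavy neurofilament subunit, rose 1.66-fold to 46.0 CPM. VIM (vimentin), named after its value was seen, rose 1.49-fold, from 846.4 ± 136.0 to 1261 ± 96.6 CPM. The 5 that fell, of which the last 4 were named after their values were seen, were DES, LMNB1, LMNB2, NEFM and BFSP1. DES, the filament protein of muscle, fell from 18.8 ± 3.22 to 5.02 ± 0.13 CPM (SD, n = 2 each; log2 fold change -1.90, edgeR adjusted p = 5.56e-08). The B-type lamins LMNB1 and LMNB2 dropped to 286.1 CPM (from 403.2) and 443.1 CPM (from 575.3). The call of LMNB2 was lost without LacZ replicate 1, and BFSP1 was lost under 5 alternatives. Between 11 and 13 of the list passed when any 1 library was left out.

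**Figure D3:**
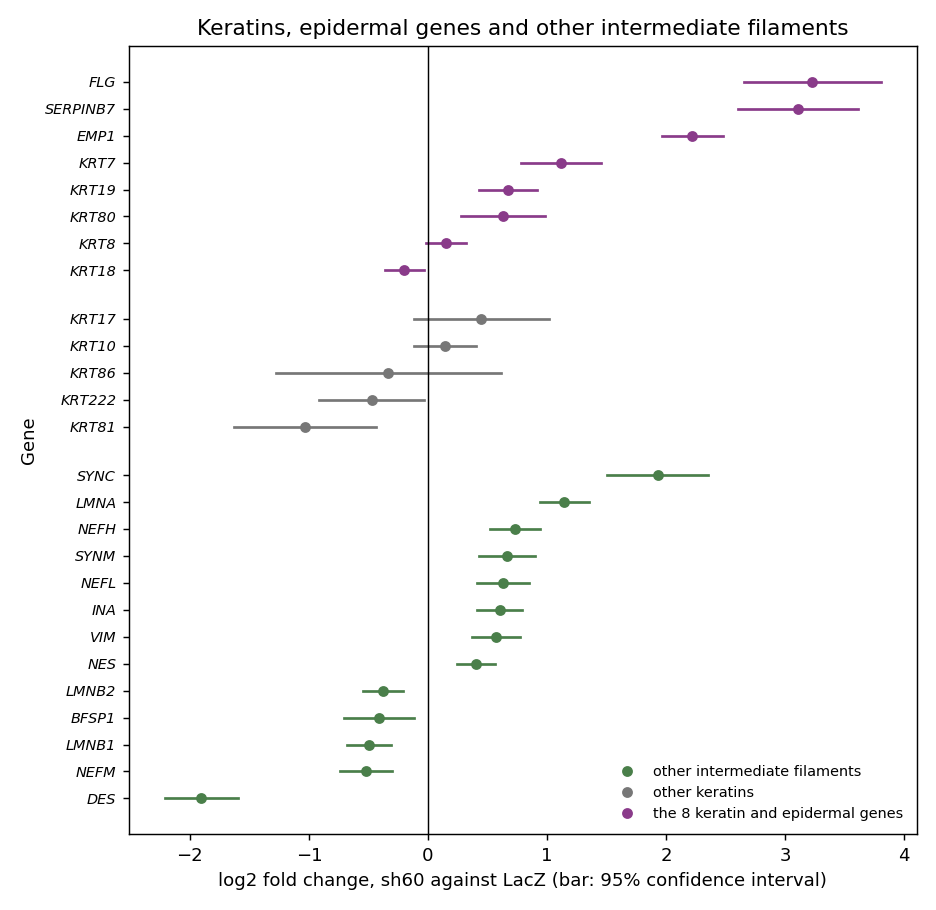
Log2 fold change of sh60 against LacZ with its 95% confidence interval for the 8 genes, the tested other keratins (KRT74 left out because of its 1 and 0 counts in sh60) and the 13 tested intermediate filament genes outside the keratins. FLG, SERPINB7 and EMP1 lie beyond 2, while KRT8 and KRT18 lie close to 0.

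**Figure D4:**
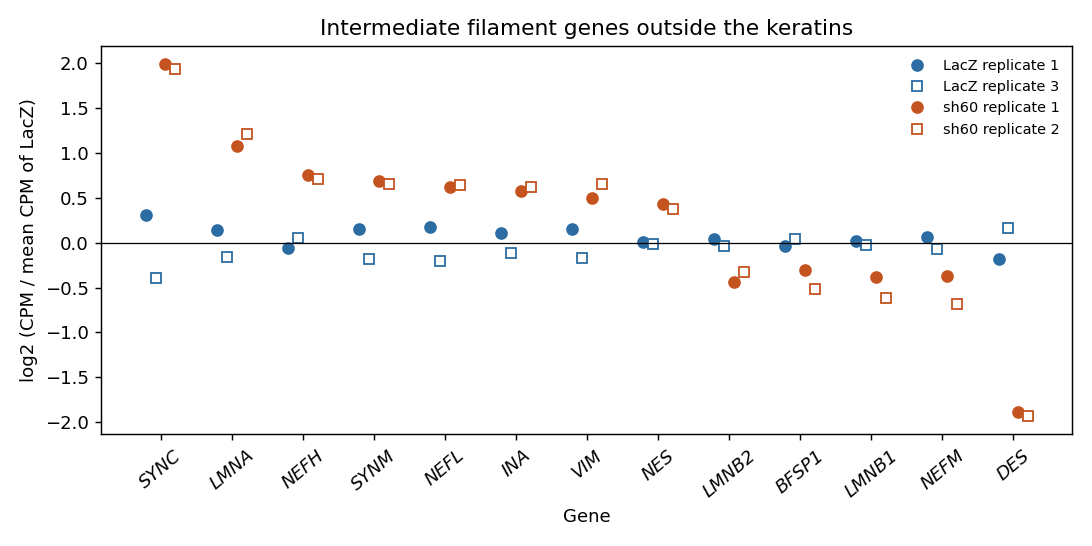
Level in each library relative to the mean of the LacZ libraries, on a log2 scale, for the 13 intermediate filament genes outside the keratins. SYNC lies highest and DES lowest, and the genes to the right of NES are those that fell in sh60.

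Genes that anchor keratin filaments at the cell surface were listed next. Of 19 desmosome and linker genes 14 were tested, 7 rose, 1 fell and 6 did not pass, with a median log2 fold change of 0.31. Of all tested genes 15.8% were called higher and 13.0% lower. DSC3, a desmosomal cadherin, rose 2.13-fold to 10.9 CPM, and EPPK1 (epiplakin), a keratin-binding linker, rose 2.14-fold to 15.7 CPM. PKP2, a plaque protein, rose 1.70-fold to 105.1 CPM and PLEC (plectin), which links filaments to hemidesmosomes, rose 1.51-fold to 222.0 CPM. EVPL (envoplakin), named after its value was seen, fell from 0.741 to 0.254 CPM (edgeR adjusted p = 0.0145), a call lost without LacZ replicate 3 and without sh60 replicate 2. Its log2 fold change was -1.04 without sh60 replicate 2 and -2.21 without sh60 replicate 1. DESeq2 gave it no adjusted p, and the stricter count filter left it untested. The plaque gene DSP (desmoplakin), also named after its value was seen, measured 210.5 and 192.0 CPM in LacZ and sh60 and did not pass.

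Among cornified envelope genes other than FLG, 1 of 7 tested rose, where 15.8% of all tested genes did. Of 49 genes, including the SPRR and LCE families, 28 had 0 counts in every library and 7 were tested. ABCA12, a lipid transporter of the outer epidermis, rose from 1.16 to 4.69 CPM, or 3.90-fold (edgeR adjusted p = 7.31e-06), while 0 fell and 6 did not pass. In the epidermal differentiation complex, the part of chromosome 1 that holds FLG, 38 of 70 other genes had 0 counts in every library. Of 12 other tested genes 8 rose (15.8% of all tested genes) and 0 fell. The 8 were S100 genes, FLG-AS1, which overlaps FLG, and PRR9, named after its value was seen. No SPRR or LCE gene was among them. The count for this span was not repeated under the alternative settings. S100A10, of the S100 protein family, rose 2.16-fold to 204.6 CPM, S100A3 rose 2.87-fold to 4.78 CPM and S100A4 rose 2.19-fold to 5.98 CPM.

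Relatives of SERPINB7 and EMP1 were listed as well. SERPINB7 and EMP1 were chosen with their differences known, so nothing is read from smaller fold changes in the relatives. Of 12 other clade B serpin genes, 8 were under 1 CPM in every library. In the 5 that were tested, 3 rose (15.8% of all tested genes), 0 fell and 2 did not pass. SERPINB6 rose 1.87-fold to 61.4 CPM, SERPINB8 1.39-fold to 9.64 CPM and SERPINB9 1.21-fold to 309.9 CPM. Without LacZ replicate 3 only 1 of them passed. Of the 4 other genes of the PMP22 family, EMP3 rose from 21.2 to 28.2 CPM and PMP22 from 53.3 to 75.6 CPM, while EMP2 and LIM2 did not pass. Neither EMP3 nor PMP22 passed without LacZ replicate 3 or without sh60 replicate 2, and in the latter case 0 genes of the family were higher and 1 was lower. EMP3 was also lost without LacZ replicate 1, and PMP22 by DESeq2 (adjusted p = 0.428) and with GC and length trends removed. For PMP22 the log2 fold change was 0.15 without LacZ replicate 3 and 0.98 without LacZ replicate 1. Within 500000 bases of EMP1, 3 of 12 other tested genes rose (15.8% of all tested genes) and 0 fell. They were GPRC5A (2.10-fold, to 10.1 CPM), GSG1 and KIAA1467.

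Epithelial junction genes and epithelial transcription factors were read against the 15.8% of all tested genes called higher and the 13.0% called lower. Of 23 junction and adhesion genes 8 rose, 2 fell and 13 did not pass, with a median log2 fold change of 0.15. This balance was not stable. It was reversed without sh60 replicate 2, and the excess of higher calls was smaller without either LacZ library and by DESeq2. ESRP2, an epithelial splicing factor, rose 1.69-fold to 15.0 CPM and SPINT1, a membrane protease inhibitor, 1.35-fold to 34.6 CPM. LSR, a tricellular junction protein, fell from 91.3 to 60.7 CPM and CDH1 (E-cadherin) from 131.5 to 102.8 CPM (edgeR adjusted p = 0.000255 and 0.00414). The CDH1 call was lost without either LacZ library and the SPINT1 call without LacZ replicate 1. Without LacZ replicate 3 this list had 3 higher and 1 lower, and without LacZ replicate 1, as by DESeq2, it had 4 higher and 2 lower. Of 17 tested epithelial transcription factors 2 rose, 0 fell and 15 did not pass. CEBPB rose 1.28-fold and TFAP2A 1.29-fold (edgeR adjusted p = 0.0279 and 0.0436), and neither passed without LacZ replicate 3 or without sh60 replicate 2.

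Markers of cells that carry such genes were measured beside them, where 15.8% of all tested genes were called higher and 13.0% lower. Of 9 keratinocyte markers, 6 of which are also in the lists above, 4 were tested and 1 rose, COL17A1, from 4.46 to 8.68 CPM. Their summed level was 19.1 CPM in both LacZ libraries and 24.9 and 25.7 CPM in the sh60 libraries. KRT1 had 0 counts in every library, KRT14 at most 1 count, and KRT5 and TP63 at most 6. Of 10 trophoblast markers 9 were in the tables, 3 were tested and 0 passed, while with no count filter 2 were called higher. They summed to 36.9 and 25.7 CPM in the LacZ pair, against 36.2 and 40.7 CPM in the sh60 pair. ERVFRD-1 had 0 counts in every library and CGA at most 2. Of 8 fibroblast markers 3 rose (COL1A1, COL1A2 and LUM), 2 fell (THY1 and PDGFRA) and none was at 0. By DESeq2 3 rose and 1 fell, and the falls were not all kept when either LacZ library was left out. The 8 markers summed to 541.8 and 445.1 CPM in the LacZ pair, against 924.9 and 1089 CPM in the sh60 pair. The part of such cells in the differences above was not tested.

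Profiles over the 4 libraries were compared with those of 11250 other genes with a mean of at least 5 CPM, by the Euclidean distance of centred log2 CPM. For FLG the nearest was C4orf26 (distance 0.159), which measured 1.54 and 0.532 CPM in the LacZ pair, against 9.60 and 9.59 CPM in the sh60 pair, followed by MFAP5 (0.340). For EMP1 they were ADM (0.0851) and CLCA2 (0.101), and for SERPINB7 GLIPR1 (0.628) and ANKRD1 (0.726). For KRT7 they were DACH1 (0.129) and CREB3L1 (0.139), for KRT19 EML2 (0.0295) and NEK6 (0.0469), and for KRT80 C14orf79 (0.0326) and SPARC (0.0353). For KRT8 they were GYG1 (0.0143) and FBXO31 (0.0185), and for KRT18 RHBDD2 (0.0107) and HDGFRP2 (0.0109). SERPINB7 had the most distant nearest gene of the 8. By their mean over the libraries, SERPINB7 and FLG lie under the floor of 5 CPM themselves, so genes at their level were not compared. Counting error in their low LacZ counts also enters the distance. A likeness over 4 libraries in 2 groups is a description only.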

How the data were processed

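Values are raw counts per gene, 1 deposited table per library, in 2 LacZ and 2 sh60 libraries of single-end stranded mRNA sequencing. The submitters' processing notes name STAR 2.7.6a and hg19, and the authors' counts over exons were made with featureCounts of Subread 2.0.0 at strand setting 2, per the file headers. The command carries no option to count multi-mapping reads.

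Counts were tested with edgeR 4.0.16 (R 4.3.3) by glmQLFit and glmQLFTest with TMM scaling, group as the only term and filterByExpr, which kept 16040 of 20937 genes with a count. Benjamini-Hochberg adjustment ran over all tested genes, with a threshold of 0.05. Each SE is the size of the log2 fold change divided by the square root of the F statistic of that test. Confidence intervals were built from this SE and are not adjusted. The fit was also run on simulated counts with the same spread for all genes and both groups. That setting is simpler than these libraries, so the run checks the code only. RPKM uses the exon length in the files. Within each group the libraries were compared gene by gene, and chi-square divided by its degrees of freedom was 5.89 (LacZ) and 15.8 (sh60), above sampling noise.

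The genes, lists and tests were chosen with earlier results of these data known. From each list up to 4 called genes with the smallest p, or up to 2 of the highest level where none was called, could be named, and for each of the 8 genes the 2 nearest profiles of at least 5 CPM. For each genomic span up to 3 called genes could be named. Marker genes could all be named. As alternatives, scaling used upper quartiles, DESeq2 size factors or library totals, and the test was DESeq2 1.42.0 or limma-voom (limma 3.58.1). Others were no count filter, 1 CPM in 2 libraries, removal of GC and length trends (GENCODE 29 transcripts matched 97.3% of tested genes by symbol), and each library left out. Protein sequences were not used here.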

Additional observations from a re-analysis of the deposited data

How the results depend on the processing

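Across 12 alternatives the sign of each of the 8 genes held. The number of them called higher was 5 to 7 with 1 library left out and 6 to 7 otherwise. KRT80 was not called without LacZ replicate 3 (log2 fold change 0.45). KRT8 was called after removal of GC and length trends (0.20) and when sh60 replicate 1 was left out (0.23), and KRT18 was called in 6 alternatives (adjusted p from 0.00125 to 0.452 over the 12). FLG ranged from 2.80 to 4.13 when a library was left out.

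By DESeq2, 0 other keratins, 1 PMP22 family gene, 6 junction genes and 1 epithelial transcription factor were called; DESeq2 gave KRT74 no adjusted p. The stricter filter left 1 other keratin, because fewer genes were tested. With GC and length trends removed, 5 epithelial transcription factors and 3175 genes lower in sh60 were called (2084 in the fit reported), and the cause was not tested.

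With each library left out in turn, 1331 to 2789 genes were higher and 956 to 2697 lower. Calls ranged from 0 to 3 among other keratins, from 1 to 3 among clade B serpins, from 0 to 2 in the PMP22 family, from 4 to 12 among junction genes and from 0 to 5 among epithelial transcription factors. A library left alone in its group is assumed to vary like the other group. No paired analysis was possible because the groups share only replicate number 1. Counts under about 10, as for FLG in LacZ replicate 3, limit the precision of ratios.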
